A study of Mus musculus with 4 samples.

Results

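The genes described here are 8 transcription factors that set up areas and boundaries in the developing cerebral cortex: Emx1, Emx2, Lhx2, Dmrta2, Dmrt3, Nr2f1, Nr2f2 and Sp8. They were taken by gene symbol from the deposited table of bulk RNA sequencing, and they are 8 of its 26433 genes. The list was selected on values of these same libraries, the counts of each gene scaled to library size, with their results known, so the differences between genotypes below are a description of the 8 genes and support no statement about them. All 8 genes had enough reads to be tested.

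RNA came from mouse embryos at embryonic day 15 (E15). The labels give the tissue as cerebral cortex and the strain as C57BL/6, and the study's methods call the tissue telencephalic. The cKI f/+ embryos carried 1 allele of human SERPINA3 with a 3×flag tag, driven by the CAG promoter from the Rosa26 locus. A loxP-flanked STOP cassette kept that allele silent until Nestin-Cre removed the cassette, and Nestin-Cre acts in neural progenitors and therefore in the neurons they produce. WT littermates were the controls. The founders were made by gene editing in zygotes and bred with B6D2F2 mice before the cross to Nestin-Cre mice on a C57BL/6 background. There were 2 cKI f/+ libraries, KI2 and KI3, and 2 WT libraries, WT1 and WT3, of a design that the labels describe as triplicate. The study's methods describe biological replicates in mice, in general, as separate embryos. They do not say how many embryos went into each of these libraries, and p-values measure the spread between the libraries.

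Cortical areas arise from a map that is laid down in the progenitors of the ventricular zone before axons from the thalamus arrive. Signals from the edges of the cortical sheet, FGFs at the front, WNTs and BMPs from the cortical hem at the medial edge and EGF-family and WNT-antagonist signals from the antihem at the lateral edge, set graded levels of transcription factors. Emx2 and the Dmrt factors are highest in caudal and medial cortex, Nr2f1 (COUP-TFI) is highest in caudal and lateral cortex, Nr2f2 (COUP-TFII) marks the caudal and ventral edge and the caudal ganglionic eminence, and Sp8 is highest rostrally and medially. Lhx2 fixes cortical identity against that of the hem and antihem.

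The libraries held between 17423512 and 18119444 counts, and 3 counts, taken as the floor of detection, came to 0.166 to 0.172 CPM. CPM here are the counts after scaling by library size and TMM factor, and the floor covers counting error only. Over 15786 tested genes the biological coefficient of variation was 8.72%. A chi-square comparison of counts within a genotype gave 5.63 per degree of freedom in cKI f/+ and 7.49 in WT, so no library duplicated another. The groups also differed in the sex-linked genes: Xist had 13223 and 11882 counts in the cKI f/+ libraries against 5 and 5 in WT, while Kdm5d, on the Y chromosome, had 0 and 0 against 951 and 918. The Y-linked Eif2s3y, Ddx3y and Uty had at most 1 count in a cKI f/+ library and at least 214 in a WT library. Genotype and the sex of the embryos therefore cannot be told apart in any difference below. Glo1, the glyoxalase that the study follows, had 1943 and 2129 counts against 1237 and 1253, a log2 fold change of 0.68 with a standard error (SE) of 0.08 and an adjusted p of 0.0106 in edgeR's quasi-likelihood test. The transgene itself was not analysed here.

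The labelled tissue was checked against marker genes. Summed markers of radial glia lay between 2360 and 2490 CPM in cKI f/+ and between 2360 and 2460 CPM in WT, led by Vim and Nes, and those of neurons between 5340 and 5800 CPM and between 5680 and 6050 CPM, led by Tubb3 and Neurod6. Ventral telencephalon was present too, at 288 to 310 CPM in cKI f/+ and 290 to 369 CPM in WT over 12 markers led by Dlx1 and Lhx6. Diencephalic markers were detected as well: their 6 genes, led by Lhx9 and Tcf7l2, summed to 39.7 to 47.1 CPM in cKI f/+ and 36.9 to 42.1 CPM in WT, although Gbx2 was at or under 3 counts in every library. Since the tissue is bulk, fewer cells that express a gene and less of its RNA per cell cannot be told apart.

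Promoter sequence is shown for Dmrta2, which had the largest difference between genotypes relative to its error, and for the gene that varied most among libraries, Nr2f2. The windows run from 250 bases before the RefSeq start to 50 bases after it (build GRCm38.p6, 300 bases, 5′ to 3′ on the gene's strand), and capitals mark the CCAAT box or its reverse complement ATTGG. The Dmrta2 window is chr4:109977775-109978074 on the plus strand, and the Nr2f2 window is chr7:70366697-70366996 on the minus strand.
Dmrta2: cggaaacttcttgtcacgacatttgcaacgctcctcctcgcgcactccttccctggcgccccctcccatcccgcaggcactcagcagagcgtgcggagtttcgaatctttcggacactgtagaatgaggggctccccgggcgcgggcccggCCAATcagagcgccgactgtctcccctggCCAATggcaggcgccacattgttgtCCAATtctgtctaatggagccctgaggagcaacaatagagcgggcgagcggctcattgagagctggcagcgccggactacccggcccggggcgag
Nr2f2: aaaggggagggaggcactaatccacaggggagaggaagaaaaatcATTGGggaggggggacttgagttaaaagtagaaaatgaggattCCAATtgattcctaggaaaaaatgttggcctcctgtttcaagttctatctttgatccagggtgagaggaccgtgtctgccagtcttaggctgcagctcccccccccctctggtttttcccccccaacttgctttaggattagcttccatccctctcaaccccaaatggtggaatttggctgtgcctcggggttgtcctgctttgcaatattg
The Dmrta2 window held 63.7% G and C and 3 CCAAT boxes, and the Nr2f2 window held 49.7% G and C and 2. Over 32851 windows of that length in the same RefSeq table the median was 52.7%, a CCAAT box on either strand occurred in 37.4% of windows, and 3 or more occurred in 3.37%. All 8 genes matched the table, with 12 windows among them, of which 6 held a CCAAT box. The sequence TAATTA, a core bound by many homeodomains, was in 2 of the 12 windows, 1 of Emx2 and 1 of Sp8, and in 5.3% of all windows. AGGTCA, the core motif of nuclear receptors, was in 1 window, of Sp8, and in 16.3% of all windows. Both strands were searched, on which TAATTA reads the same, and a match is a description of letters and not a bound site.

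Because a longer transcript collects more reads, levels were compared between genes as CPM per kilobase of annotated exon, averaged over the 4 libraries. Lhx2 was highest, with a mean of 150 CPM per kilobase and a range of 136 to 168. Emx1 followed at 82.7 (75.5 to 97.5), Nr2f1 at 46.9 (33.2 to 57.9), Dmrta2 at 39.2 (33.1 to 46.9) and Emx2 at 25.9 (23.6 to 27.8) CPM per kilobase. The lowest were Dmrt3 at 9.21 (7.88 to 12.2), Nr2f2 at 5.34 (2.18 to 8.66) and Sp8 at 2.63 (2.24 to 2.8) CPM per kilobase. Neighbours in that order did not overlap over the libraries except for Nr2f1 with Dmrta2, Dmrt3 with Nr2f2, and Nr2f2 with Sp8. The lower part of the order also depends on the length used, since Nr2f2 ranked above Dmrt3 with the longest transcript or the coding length and Emx2 ranked above Dmrta2 with the coding length.

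**Figure D1:**
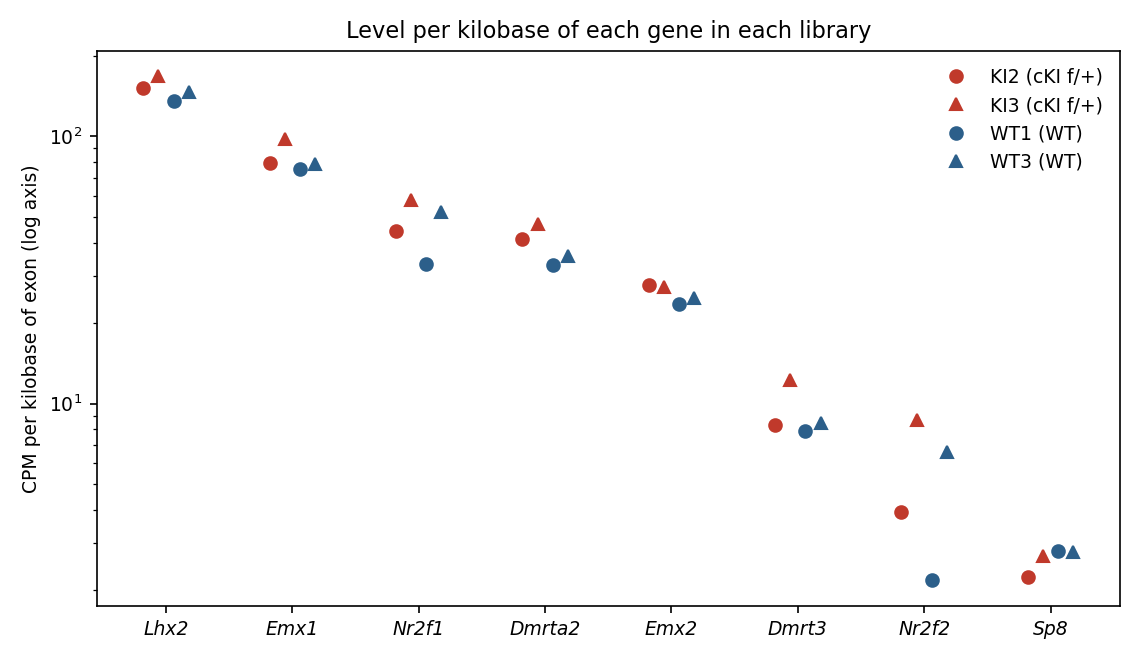
CPM per kilobase of exon (vertical log axis) of each of the 8 genes (horizontal axis, ordered by their mean) in the cKI f/+ libraries (red) and the WT libraries (blue). Lhx2 lies between 136 and 168 in all 4 libraries and Sp8 between 2.24 and 2.8, while Nr2f2 spreads from 2.18 to 8.66.

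Emx1 and Emx2 are paralogous homeobox genes of the cortical progenitors, Emx1 being broad across the cortex and Emx2 graded. Emx1 (ENSMUSG00000033726, chr6:85187438-85204462, plus strand) was at 173 and 213 CPM in KI2 and KI3 and at 165 and 171 CPM in WT1 and WT3. Both cKI f/+ libraries were above both WT libraries, but KI2 by only a small step, and KI3 set most of the difference. The fitted log2 fold change was 0.20 (SE 0.10), or 1.15-fold, and it ranged from 0.04 to 0.33 as each library was left out. Emx2 (ENSMUSG00000043969, chr19:59458372-59465357, plus strand) was at 83.5 and 81.9 CPM in cKI f/+ against 70.9 and 74.8 CPM in WT. Its groups did not overlap, and within both groups the libraries stood close together. The log2 fold change of Emx2 was 0.18 (SE 0.08), or 1.14-fold, and it stayed between 0.15 and 0.22 without any 1 library.

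Lhx2, the LIM homeobox factor (ENSMUSG00000000247, chr2:38339281-38369733, plus strand), had the most reads of the 8 genes, with 11735 and 13362 counts in cKI f/+ and 10563 and 11174 in WT. In CPM these were 666 and 737 against 599 and 641. Again the lower cKI f/+ library, KI2, was above the higher WT library, WT3, by less than the cKI f/+ libraries differed from each other. The log2 fold change was 0.18 (SE 0.08), or 1.13-fold, with a range of 0.10 to 0.24 as libraries were left out.

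Dmrta2 and Dmrt3 carry the DM zinc finger domain and act with Emx2 on the medial and caudal side of the map. Dmrta2 (ENSMUSG00000047143, chr4:109978053-109983687, plus strand) had 2128 and 2483 counts in cKI f/+ and 1706 and 1806 in WT, which is 121 and 137 CPM against 96.7 and 104 CPM. The means were 129 ± 11.5 and 100 ± 4.9 CPM (SD, n = 2 each), and the groups were further apart than the libraries within either. Its log2 fold change of 0.36 (SE 0.09), or 1.29-fold, was the largest of the 8 genes relative to its SE, and it ranged from 0.27 to 0.44 as libraries were left out. Dmrt3 (ENSMUSG00000042372, chr19:25610537-25623920, plus strand) was at 20.4 and 29.8 CPM in cKI f/+ and at 19.3 and 20.6 CPM in WT. Here only KI3 stood apart: KI2 fell between the WT libraries, so the groups overlapped. The log2 fold change of Dmrt3 was 0.33 (SE 0.17) with all libraries and 0.03 without KI3.

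Nr2f1 and Nr2f2 are orphan nuclear receptors of the COUP-TF family. Nr2f1 (ENSMUSG00000069171, chr13:78188973-78199757, minus strand) was at 225 and 295 CPM in KI2 and KI3 and at 169 and 265 CPM in WT1 and WT3. Nr2f2 (ENSMUSG00000030551, chr7:70351944-70366735, minus strand) was at 33.8 and 74.7 CPM in KI2 and KI3 and at 18.8 and 57 CPM in WT1 and WT3. For both genes the groups overlapped, with WT3 above KI2 and WT1 the lowest of the 4 libraries. The fitted log2 fold changes were 0.26 (SE 0.19) for Nr2f1 and 0.52 (SE 0.45) for Nr2f2. Neither direction held when single libraries were left out: Nr2f1 was at -0.03 without WT1, and Nr2f2 was at -0.07 without WT1 and -0.17 without KI3. Without WT3, which leaves WT1, the lowest library, alone to stand for WT, they were 0.62 and 1.53.

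Sp8, a zinc finger factor of the rostral and medial progenitors that works with FGF8, was the only 1 of the 8 genes to be lower in cKI f/+. Sp8 (ENSMUSG00000048562, chr12:118846329-118852576, plus strand) had 180 and 223 counts in cKI f/+ and 225 and 221 in WT, or 10.2 and 12.3 CPM against 12.8 and 12.7 CPM. KI3 was just under both WT libraries and KI2 further below. The log2 fold change was -0.18 (SE 0.15), and it ranged from -0.32 to -0.06 as libraries were left out.

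**Figure D2:**
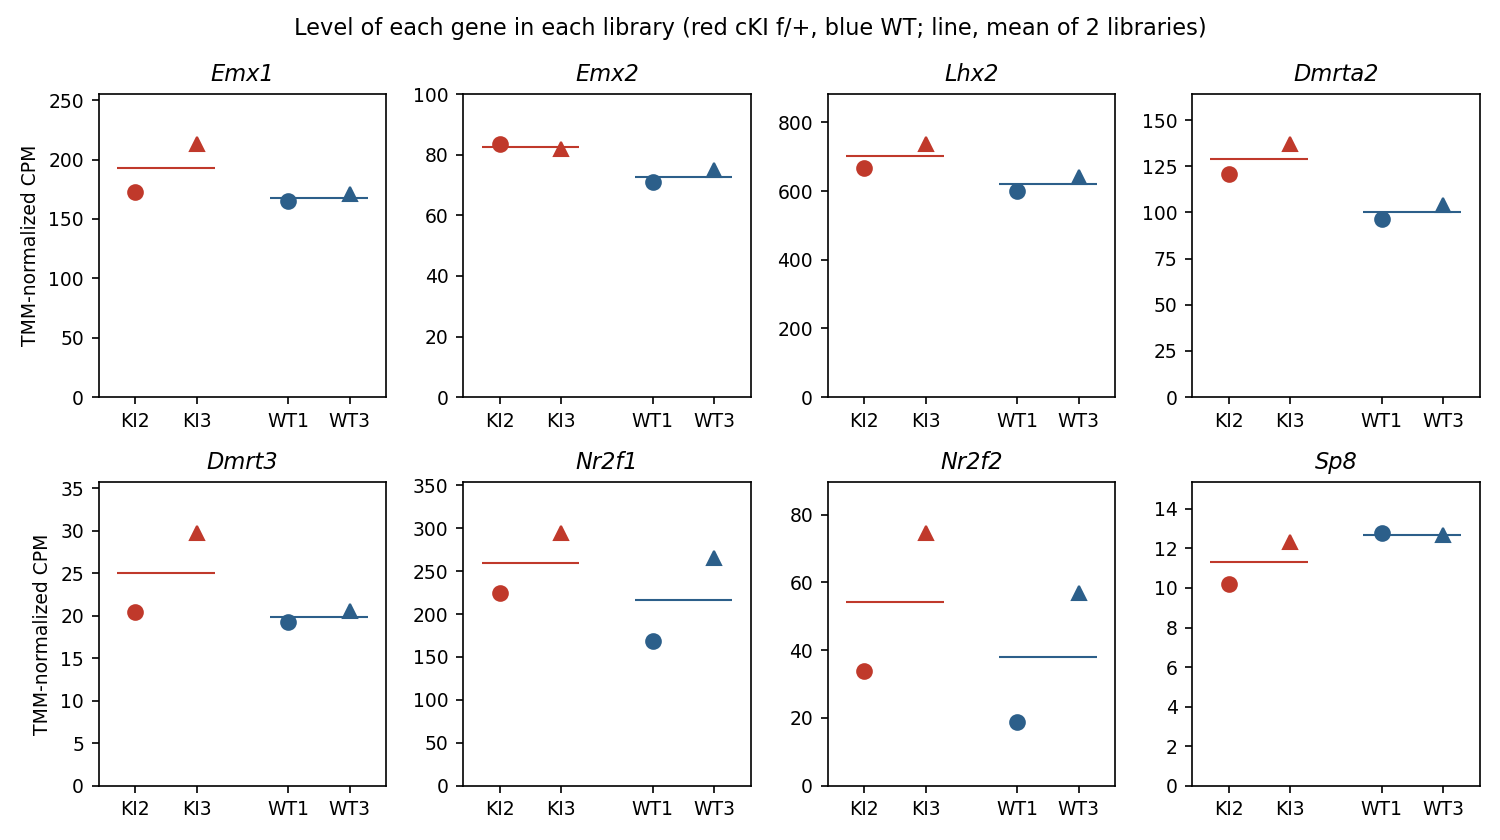
TMM-normalized CPM (vertical axis from 0, a separate scale for each gene) of the 8 genes in the cKI f/+ libraries KI2 and KI3 (red) and the WT libraries WT1 and WT3 (blue), with a line at each group's mean. Both cKI f/+ points lie above both WT points for Emx1, Emx2, Lhx2 and Dmrta2 and below them for Sp8, and the groups overlap for Dmrt3, Nr2f1 and Nr2f2.

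Counted over the list, 7 of the 8 genes had a log2 fold change above 0 and 1 below, where 51.2% of all tested genes were above 0. The median was 0.23, against 0 over all tested genes. The libraries of the groups did not overlap for 4 genes that were higher in cKI f/+ (17.3% of all tested genes) and for 1 that was lower (16.9%), or 34.1% of all tested genes in either direction. With edgeR's quasi-likelihood test and Benjamini-Hochberg adjustment over all tested genes, 0 of the 8 were called at an adjusted p under 0.05, where 19 genes or 0.120% of all were called. At an unadjusted p under 0.05 there were 2, Dmrta2 and Emx2, where 4.60% of all genes passed. DESeq2 and edgeR's likelihood ratio test also called 0, with 2 and 1 genes at an unadjusted p under 0.05. These counts come from the comparison that was known when the genes were listed, so nothing is read from them. With 2 libraries against 2, a two-sided exact permutation test of 1 gene cannot go below a p of 0.33.

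**Figure D3:**
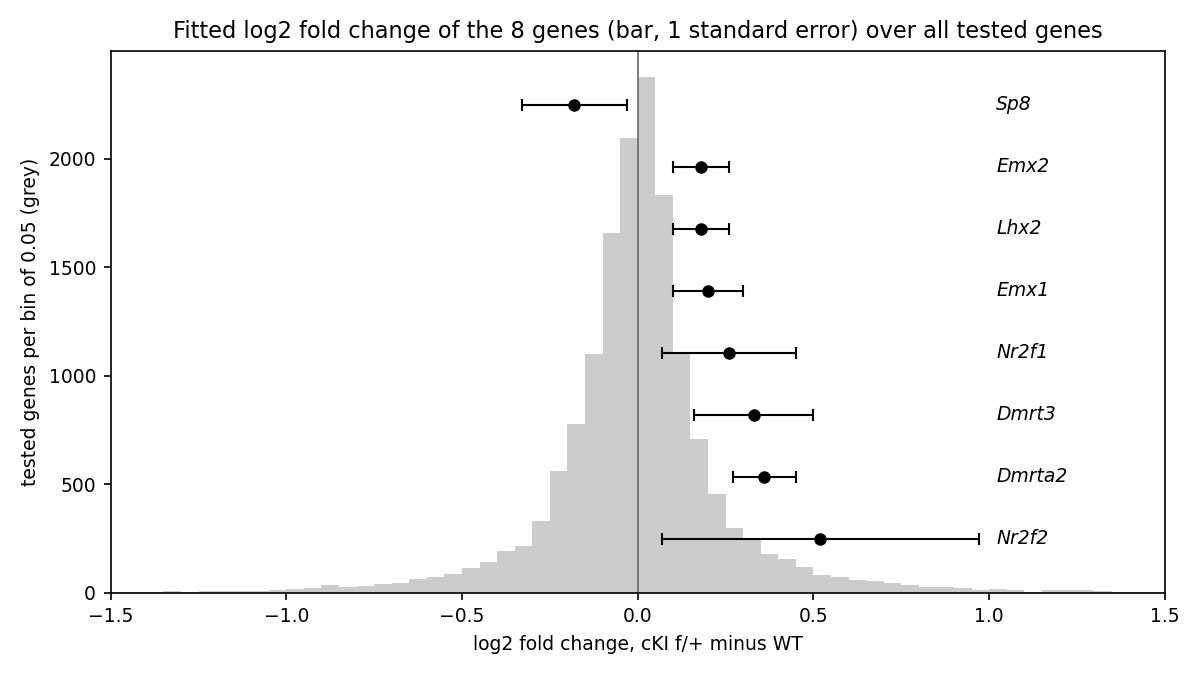
Fitted log2 fold change of cKI f/+ against WT for the 8 genes (black points, horizontal bars of 1 SE, placed at arbitrary heights) over a histogram of the log2 fold changes of the tested genes between -1.5 and 1.5 (grey, vertical axis in genes per bin of 0.05). Sp8 is left of 0 at -0.18, and the other genes lie from 0.18 to 0.52, Nr2f2 with the longest bar (SE 0.45).

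How far the libraries of 1 genotype differed from each other varied widely among the 8 genes, and it was greatest for Nr2f2. On the scale of log2 (CPM + 0.5), KI3 was above KI2 by 1.13 for Nr2f2 and WT3 was above WT1 by 1.58, so that the level differed 2.21-fold between the cKI f/+ libraries and 3.04-fold between the WT libraries. The highest library, KI3, was 3.98-fold above the lowest, WT1. Over all tested genes the median size of these differences was 0.12 and 0.14. Nr2f1 went the same way by a smaller step, with KI3 above KI2 by 0.39 and WT3 above WT1 by 0.65. For these nuclear receptors, and for no other of the 8 genes, both differences within a genotype were larger than the fitted difference between genotypes. Emx2 differed by -0.03 and 0.08 and Lhx2 by 0.15 and 0.10.

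Of 15786 tested genes, only 2 had differences in both groups at least as large as those of Nr2f2 in the same direction, Nr2f2 itself included. The other was Six3, a homeobox gene of the ventral and rostral forebrain, at 0.284 and 1.88 CPM in KI2 and KI3 and 1.76 and 6.43 CPM in WT1 and WT3. Six3 was named after its values were seen. For Nr2f1 the number was 95 genes, or 0.602%, and 21 of 11334 genes with a mean of at least 5 CPM. Setting KI3 and WT3 against KI2 and WT1 is a choice made after the values were seen, since no label ties a cKI f/+ library to a WT library.

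**Figure D4:**
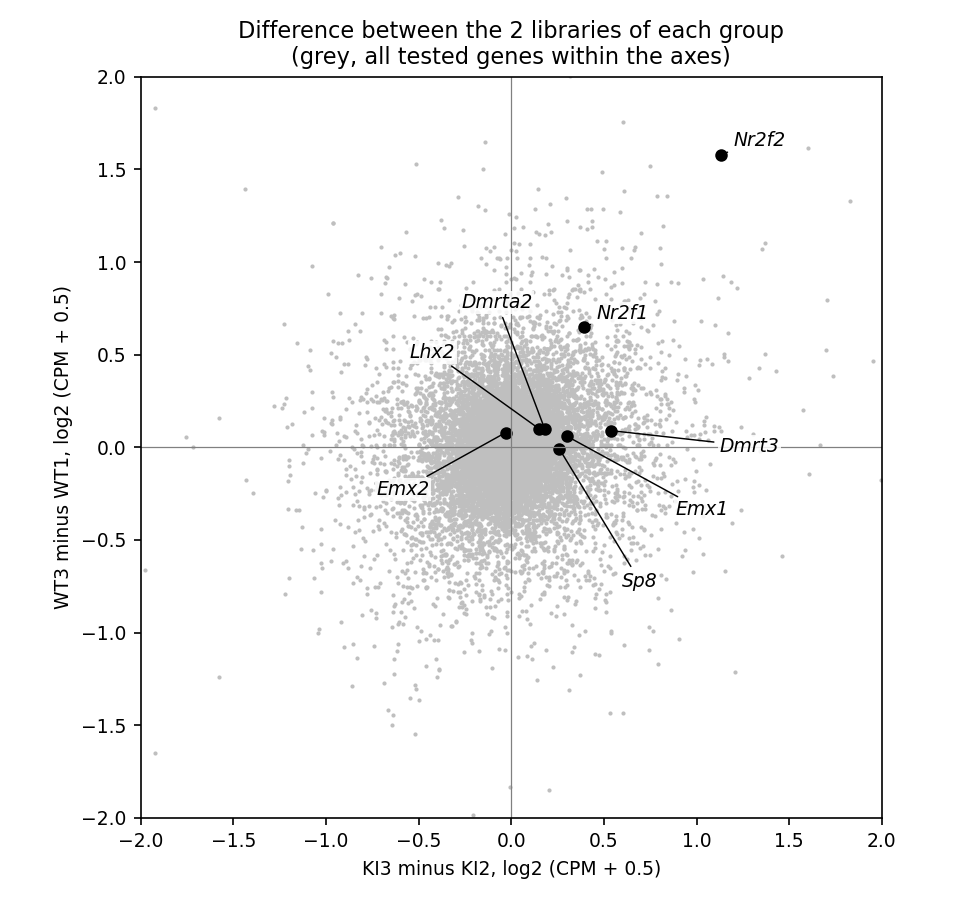
Difference between the cKI f/+ libraries, KI3 minus KI2 (horizontal axis), and between the WT libraries, WT3 minus WT1 (vertical axis), both on log2 (CPM + 0.5), for all tested genes within the axes (grey) and the 8 genes (black, named). Nr2f2 lies far to the upper right at 1.13 and 1.58, Nr2f1 at 0.39 and 0.65, and the other 6 genes lie within 0.10 of 0 on the vertical axis.

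The same orientation, chosen after the values of these genes were seen, was then counted over gene lists by sign alone, however small the difference. KI3 was above KI2 and WT3 above WT1 for 6 of the 8 genes and for 28.6% of all tested genes. It was so for 11 of 14 tested genes of the cortical hem list of WNT and BMP genes. The ventral telencephalon had 8 of 12 and the choroid plexus 4 of 5. The caudal ganglionic eminence, an embryonic source of interneurons, had 4 of 5. Lists in between included the antihem with 2 of 4, cofactors with 5 of 12 and endothelium with 2 of 5. Radial glia had 3 of 8 and the diencephalon 1 of 3. It was so for 0 of 5 genes of intermediate progenitors, 1 of 6 of Cajal-Retzius cells, 3 of 16 areal genes and 3 of 13 FGF genes. Neurons had 0 of 6, dorsal patterning factors 4 of 19 and meninges 1 of 4. Microglia had 1 of 5, blood 1 of 6 and sex-linked genes 0 of 5. The summed level of the caudal ganglionic eminence markers, led by Sp9 and Prox1, was 41.4 and 44.7 CPM in KI2 and KI3 and 39.7 and 48 CPM in WT1 and WT3. Of its genes, Sp9 went from 14.9 to 19.6 CPM between KI2 and KI3 and from 16 to 22.4 CPM between WT1 and WT3, and Npas1 went the other way, from 12.9 to 7.45 CPM and from 10.2 to 9.64 CPM. The ventral telencephalic sum was 288 and 310 CPM in cKI f/+ and 290 and 369 CPM in WT. The part of these cells in the spread of Nr2f2 and Nr2f1 was not tested.

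Ratios between paralogs within a library do not depend on the scaling of libraries. The log2 ratio of Emx2 to Emx1, per kilobase of exon, was -1.51 and -1.84 in KI2 and KI3 and -1.68 and -1.66 in WT1 and WT3. The group means, -1.67 ± 0.23 and -1.67 ± 0.02 (SD, n = 2 each), differed by less than the libraries did. For Dmrt3 to Dmrta2 the ratio was -2.31 and -1.94 in cKI f/+ and -2.07 and -2.07 in WT, so the WT libraries fell between the cKI f/+ libraries. For Nr2f2 to Nr2f1 it was -3.50 and -2.74 in cKI f/+ and -3.93 and -2.98 in WT. Nr2f2 therefore varied more than Nr2f1 within both genotypes, and the groups overlapped.

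Genes that overlap the 8 genes or lie within 5 kb of them were examined because the strand setting of the read counting is not given in the sources used here, and without strand the reads of a gene and its antisense partner cannot be told apart. Dmrta2os, which runs the other way from a start region 239 bases from Dmrta2 and reaches into the promoter window printed for that gene, had 189 and 243 counts in cKI f/+ and 162 and 197 in WT, with a log2 fold change of 0.24 (SE 0.18). Its groups overlapped. Emx2os, which overlaps Emx2 by 264 bases, had 218 and 141 counts against 136 and 143, so KI2 alone was high. A830082K12Rik, antisense to Nr2f1 over 1741 bases, was at 28.5 and 30.6 CPM in cKI f/+ and at 22.6 and 27.5 CPM in WT, with a log2 fold change of 0.24 (SE 0.12). It did not overlap between the groups, unlike Nr2f1 itself.

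B130024G19Rik, which overlaps Nr2f2 by 1826 bases on the other strand, had 9 and 56 counts in KI2 and KI3 and 10 and 38 in WT1 and WT3. It was high in the same libraries as Nr2f2, KI3 and WT3, and its log2 fold change was 0.40 (SE 0.74). Downstream of Nr2f2, Gm44948 had 0, 2, 3 and 5 counts and was not tested. Within Lhx2 lie the antisense genes Gm27197, with 123 and 132 counts against 96 and 99 and a log2 fold change of 0.36 (SE 0.18), and Gm13584, with 41 and 54 against 61 and 54 and a log2 fold change of -0.30 (SE 0.26). Dmrt3, Emx1 and Sp8 had no such neighbour. With the reads of overlapping genes added to those of the gene, the log2 fold changes were 0.20 for Emx2 and 0.18 for Lhx2. They were 0.26 for Nr2f1 and 0.52 for Nr2f2. Without that addition the values were 0.18, 0.18, 0.26 and 0.52.

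The signals that set the map were described next from lists of the pathway genes, which were also drawn up with earlier results of these libraries known. In the cortical hem list of WNT and BMP genes, 14 of 15 genes were tested, Bmp4 having too few reads, and 0 were called in either direction by edgeR's quasi-likelihood test (lowest adjusted p = 0.667). At an unadjusted p under 0.05 there were 5 higher in cKI f/+ (2.26% of all tested genes) and 0 lower (2.34%). The list's median log2 fold change was 0.34, with 13 genes above 0 and 1 below. The largest fold changes were at Wnt3a, a hem ligand, at 3.06 and 5.74 CPM in cKI f/+ against 0.85 and 2.18 CPM in WT (log2 fold change 1.54, SE 0.44), and at Rspo1, an enhancer of WNT signalling, at 7.89 and 14.1 CPM against 3 and 6.89 CPM (1.16, SE 0.37). Both genes had both cKI f/+ libraries above both WT libraries, and in each group the same library, KI3 or WT3, was the higher. The other genes of the 5 were Wnt8b, Rspo2 and Lmx1a, named after their values were seen, with log2 fold changes of 0.88 (SE 0.22), 1.0 (SE 0.43) and 0.92 (SE 0.37). Of the abundant genes of the list, Wnt7b and Rspo3 overlapped between the groups, with log2 fold changes of 0.10 (SE 0.08) and 0.05 (SE 0.12). Axin2, a target of WNT signalling, was at 53.5 and 64.4 CPM in cKI f/+ against 47.8 and 53.1 CPM in WT (0.23, SE 0.11). Its groups did not overlap, though KI2 was only just above WT3. Leaving out KI2 gave 4 called pathway genes, Wnt3a, Rspo1, Wnt8b and the FGF gene Fgf15, and leaving out WT3 gave Wnt3a, Rspo1, Rspo2 and Crym.

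Markers of tissue next to the hem differed between the same groups. The summed choroid plexus markers were 10.4 and 67.5 CPM in KI2 and KI3 and 2.38 and 4.65 CPM in WT1 and WT3, led by Ttr and Clic6, with Kcnj13 at or under 3 counts in every library. Of 5 tested choroid plexus markers, 3 were higher in cKI f/+ without overlap, where 17.3% of all tested genes were. Meningeal markers summed to 15.5 and 13.5 CPM in cKI f/+ against 5.95 and 8.15 CPM in WT, led by Col1a2 and Col1a1, and 3 of 4 tested ones were higher without overlap, while Foxc1 had a log2 fold change of -0.49 (SE 0.33). Cajal-Retzius markers, of early neurons that arise in part from the hem, summed to 504 and 343 CPM against 371 and 349 CPM, led by Reln and Trp73. That sum follows Reln, whose groups overlapped, while 4 of the 6 markers, Trp73, Lhx1, Lhx5 and Calb2, were higher in cKI f/+ without overlap and all 6 had a log2 fold change above 0 (median 0.23). The choroid plexus and meningeal sums thus separated the groups. So did 7 of the 14 tested genes of the cortical hem list (17.3% of all tested genes were higher without overlap). The part of the cells that these lists mark in the levels of Emx2, Dmrta2, Dmrt3 and Lhx2 was not tested.

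Among the rostral FGF genes, 13 of 14 were tested, Fgf8 having too few reads, and 0 were called (lowest adjusted p = 0.969 in edgeR's quasi-likelihood test). At an unadjusted p under 0.05, 1 was higher (2.26% of all tested genes) and 1 lower (2.34%), and the median log2 fold change was -0.04. The receptors differed from each other in sign: Fgfr3, which is graded like the caudal factors, was at 166 and 183 CPM in cKI f/+ against 136 and 152 CPM in WT (0.28, SE 0.09), while Fgfr1 was at 0.02 (SE 0.09) and Fgfr2 at -0.14 (SE 0.09). Fgf15 had 10 and 82 counts in cKI f/+ and 15 and 19 in WT, so its log2 fold change of 1.39 (SE 0.74) came from KI3 alone. Fgf17 had 20 and 17 counts against 15 and 9. The antihem list had 4 of 6 genes tested, with 0 called, 0 at an unadjusted p under 0.05 and a median of 0.01, and its named genes Nrg1, Sfrp2, Nrg3 and Tgfa lay between -0.06 and 0.10.

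Of the other dorsal patterning factors, 19 of 20 were tested and 0 were called (lowest adjusted p = 0.969 in edgeR's quasi-likelihood test). At an unadjusted p under 0.05, 0 were higher (2.26% of all tested genes) and 2 lower (2.34%), and the median was -0.03. Meis2, a homeobox gene of the lateral and ventral telencephalon, was at 351 and 365 CPM in cKI f/+ against 424 and 410 CPM in WT, a log2 fold change of -0.22 (SE 0.07). Pbx3 was at 10.3 and 14 CPM against 16.6 and 16.9 CPM (-0.46, SE 0.16). Both were lower in cKI f/+ in every library. Neurog2, a proneural factor of cortical progenitors, was at 0.06 (SE 0.07).

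Cofactors of these transcription factors formed the next list. Of 12 tested genes 0 were called (0.120% of all tested genes). At an unadjusted p under 0.05, 1 was lower (2.34% of all tested genes) and 0 higher (2.26%), and the median was -0.04. Ldb1, the adaptor that LIM homeobox factors such as Lhx2 require, was at 603 and 623 CPM in cKI f/+ against 600 and 577 CPM in WT (0.06, SE 0.07), and Ssbp3, which stabilises that complex, was at 0.06 (SE 0.08). Ldb2, a relative of Ldb1, was at 38.2 and 33.1 CPM against 42.5 and 45.4 CPM (-0.30, SE 0.11). Bcl11b, a partner of COUP-TF factors, was at -0.13 (SE 0.11). Isl1 had 1 and 30 counts in cKI f/+ and 21 and 32 in WT, so its log2 fold change of -0.81 (SE 0.79) came from KI2.

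Genes that mark areas in the cortical plate, where the map is read out in neurons, were all tested. Of 16 genes 0 were called (0.120% of all tested genes). At an unadjusted p under 0.05, 2 were lower (2.34% of all tested genes) and 0 higher (2.26%), and the median was -0.14. Tbr1, a T-box factor of early cortical neurons that is high in frontal cortex, was at 468 and 442 CPM in cKI f/+ against 557 and 478 CPM in WT (-0.19, SE 0.09). Id2 and Bhlhe22 were at -0.18 (SE 0.10) and 0.06 (SE 0.09). Crym was at 22.5 and 19.9 CPM against 11.7 and 19.5 CPM (0.44, SE 0.21), so WT1 alone was low, and Cdh6 was at -0.44 (SE 0.33).

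**Figure D5:**
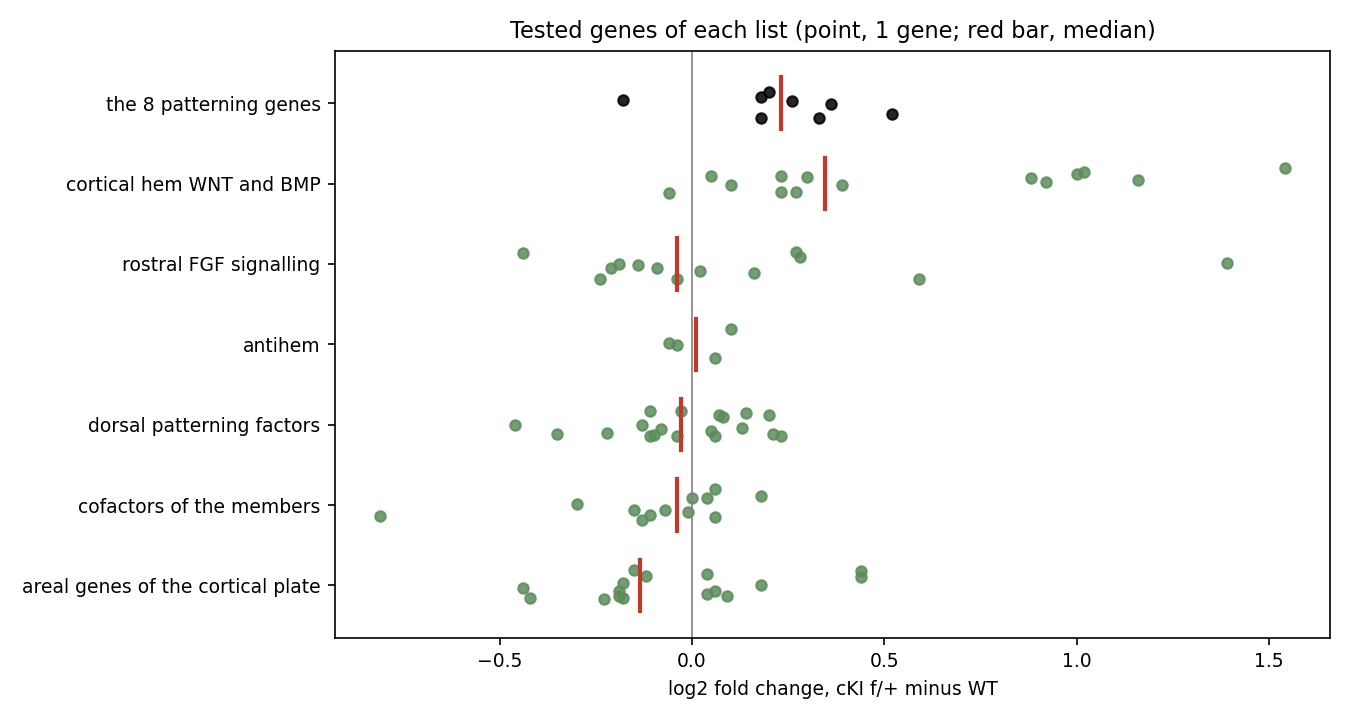
Fitted log2 fold change of cKI f/+ against WT (horizontal axis) for every tested gene of the 8 patterning genes and of the 6 pathway lists (rows; vertical scatter within a row has no meaning), with a red bar at each list's median. The median is 0.23 for the 8 genes and 0.34 for the cortical hem list, and it lies between -0.14 and 0.01 for the other lists.

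For each of the 8 genes, the pathway gene with the most similar profile was found by the Euclidean distance of log2 CPM, centred on each gene's mean, over the 4 libraries and 76 candidates. The distance was 0.06 from Lhx2 to Lef1, 0.07 from Emx1 to Axin2, 0.09 from Emx2 to Lef1 and 0.09 from Nr2f1 to Spry1. Lef1 and Axin2 belong to WNT signalling and Spry1 to FGF signalling. It was 0.10 from Dmrta2 to Fgfr3, 0.12 from Dmrt3 to Bmp7 and 0.13 from Sp8 to Nr2e1. Nr2f2 had no close match, its nearest gene being Msx1 at 0.53. Among the 8 genes themselves, Emx1 and Lhx2 were nearest at 0.11, and Nr2f2 and Sp8 were farthest apart at 1.5. With 4 libraries such distances only rank the profiles.

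The deposited annotation lists a single domain name for each of the 8 genes, which need not be the only domain it carries. The names were DM for Dmrta2 and Dmrt3, and Homeobox for Emx1, Emx2 and Lhx2. They were zf-C4 for Nr2f1, Hormone_recep for Nr2f2 and zf-H2C2_2 for Sp8, so different names do not mean different classes of protein. The term cerebral cortex regionalization was attached to 7 genes of the table, 3 of them Dmrta2, Emx1 and Emx2.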

How the data were processed

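RNA of E15 cortex from 2 cKI f/+ and 2 WT libraries was sequenced on the Illumina HiSeq platform. The authors deposited read counts per gene without normalization, with their own comparison (mean signal, fold change as a ratio and as log2, p-value and adjusted p-value), which was not used. The submitters' processing notes name TopHat2 2.0.12, Bowtie2 2.2.3, HTSeq 0.6.0 and build mm9, yet the coordinates it lists are GRCm38 ones: of 26433 genes, 24485 have the same position in GENCODE M21, and 7 of the 8 genes do, Dmrt3 being the exception. Columns could be matched to a genotype, not to a single labelled sample.

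With R 4.3.3, edgeR 4.0.16 kept 15786 genes (default filter), scaled them by TMM and ran the quasi-likelihood test, cKI f/+ against WT, with Benjamini-Hochberg adjustment over all genes at 0.05. The SE is the log2 fold change divided by the square root of F. Alternatives were DESeq2 1.42.0, the likelihood ratio test, and other scalings and filters (1 count in any library, 10 in every library). Others were removal of chromosomes X and Y, reads of overlapping genes added, other gene lengths and each library left out.

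The 8 genes and all lists were chosen with earlier results of these data known. The named genes are the 8, their neighbours within 5 kb with at least 10 reads in all, for each pathway list its called genes, its 3 most abundant and the 2 with the largest fold change, each marker list's leading 1 or 2 genes, each member's nearest pathway gene, and the sex-linked genes and Glo1. Six3, Wnt8b, Rspo2, Lmx1a, Lhx1, Lhx5, Calb2, Foxc1, Npas1 and Gbx2, and counts over KI3 and WT3 against KI2 and WT1, were chosen after the values were seen. A few results for single genes are not reported here.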

Additional observations from a re-analysis of the deposited data

How the results depend on the processing

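Over all results, 136 alternatives were labelled the same, 15 counts or values moved, 3 reversed and 2 were stronger, Nr2f1 and Nr2f2 without WT3. For a fold change, the same means an unchanged sign and side of the threshold, and for a count or ratio a value near the main one. It does not mean an unchanged size. Dmrt3, for example, went from 0.33 to 0.03 without KI3 and was counted as the same. Against 19 genes called over the whole table, there were 726 at an unadjusted p under 0.05, 54 with edgeR's likelihood ratio test, 6 under a filter of 10 counts in each library, 11 once chromosomes X and Y were removed, and 46 to 71 as each library was left out. Of the 8 genes, 0 were called in the main test and 2 were at an unadjusted p under 0.05. Pathway genes called went from 0 to a range of 0 to 4. As libraries were left out, Nr2f1 ranged from -0.03 (without WT1) to 0.62 and Nr2f2 from -0.17 (without KI3; -0.07 without WT1) to 1.53. Such a fit leaves 1 genotype with 1 library, which is assumed to vary like the others. With the longest transcript the log2 ratio of Emx2 to Emx1 was -2.11 and with the coding length -1.19, and with the coding length that of Nr2f2 to Nr2f1 was -2.51, which follows from the lengths alone. No paired analysis was possible because only the number 3 occurs in both genotypes and no label ties the libraries together. The depth limits what Sp8, with 180 to 225 counts in a library, and the low hem genes can show.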
